A study of Mus musculus with 42 samples.

Results

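The Slc25 genes encode small carrier proteins of the mitochondrial inner membrane, and their transcripts were followed in mouse liver. The members were all gene names that begin with Slc25a in the table comparing KO obese with KO lean mice, with Slc25a20 set aside. This rule gave 42 genes of the 19756 gene names found in the 6 tables and rested on the name and on being listed in that table. The table listed 43 Slc25a names in all. Slc25a31, Slc25a41, Slc25a43 and Slc25a54 were listed in other tables only and were not counted as members. All 42 members passed the filter of a mean normalized count of at least 5 in each table that listed them. Slc25a2 was not listed in the KO lean vs WT lean and WT obese+RvE1 vs WT obese tables, which left 41 members there.

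Carriers of this family exchange nucleotides, amino acids, carboxylic acids, cofactors and metal ions between the cytosol and the mitochondrial matrix. They share a fold in which a repeated module forms a gated path through the membrane. In liver they feed the urea cycle, gluconeogenesis and fatty acid synthesis, since each of these pathways has enzymes on either side of the inner membrane. A few members sit elsewhere, such as Slc25a17 in the peroxisomal membrane and Slc25a46 in the outer mitochondrial membrane.

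Whole liver was taken from 42 male C57BL/6J mice, 7 in each of 6 groups, with 1 library per mouse. WT mice and their littermates without ChemR23 (KO), a receptor for the lipid mediator RvE1 that the gene Cmklr1 encodes and that was deleted throughout the body by CRISPR/Cas9 editing, received a lean diet with 10% of its energy as fat or a high fat diet with 60%, from 6 weeks of age for 15 weeks. The 4 groups WT lean, WT obese, KO lean and KO obese received an ethanol and PBS vehicle, while WT obese+RvE1 and KO obese+RvE1 mice received 300 ng RvE1, by daily intraperitoneal injection on 4 days with harvest on day 5. Each of the 6 tables holds 14 libraries that were normalized together, so groups were compared within a table only, and comparisons that name the same group share its mice. Reads on listed genes ran from 15992556 to 43841273 per mouse. The group medians were 19797026 reads in WT lean mice, 21884172 for WT obese, 25488607 for KO lean and 23400806 for KO obese mice, and with RvE1 they were 31121723 in obese WT and 22999850 in obese KO mice.

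The deleted gene was measured first. Cmklr1 ran from 40.8 to 114 normalized counts (reads divided by a library size factor), with a median of 62.0, in WT lean mice. It ran from 9.72 to 22.6, with a median of 10.7, in KO lean mice. The KO lean group lay wholly below the WT lean group (log2 fold change -2.23 ± 0.24 SE, adjusted p = 0.000492). In obese mice Cmklr1 ran from 33.3 to 102 in WT and from 5.08 to 23.2 in KO mice, again with no overlap (log2 fold change -2.04 ± 0.31, adjusted p = 0.0339), so reads on this gene were reduced but not at 0 in KO mice. The labelled tissue was also checked. All 10 hepatocyte markers were listed in each table with a summed normalized count of at least 1208272 in every WT mouse of the diet comparison, Alb, the serum albumin gene, being the most abundant. None of these 10 markers was called in any comparison. Here and below a gene is called when its adjusted p (limma on log2 of the normalized count plus 1, Benjamini-Hochberg over all genes tested) is under 0.1. In obese mice the call of Cmklr1 was lost when the number that opens a mouse's identifier entered as a random block. It was also lost with each library scaled to equal read totals, and without mouse 22L, 6L, 10R or 31L. In each of these fits 0% of all genes were called lower.

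**Figure D1:**
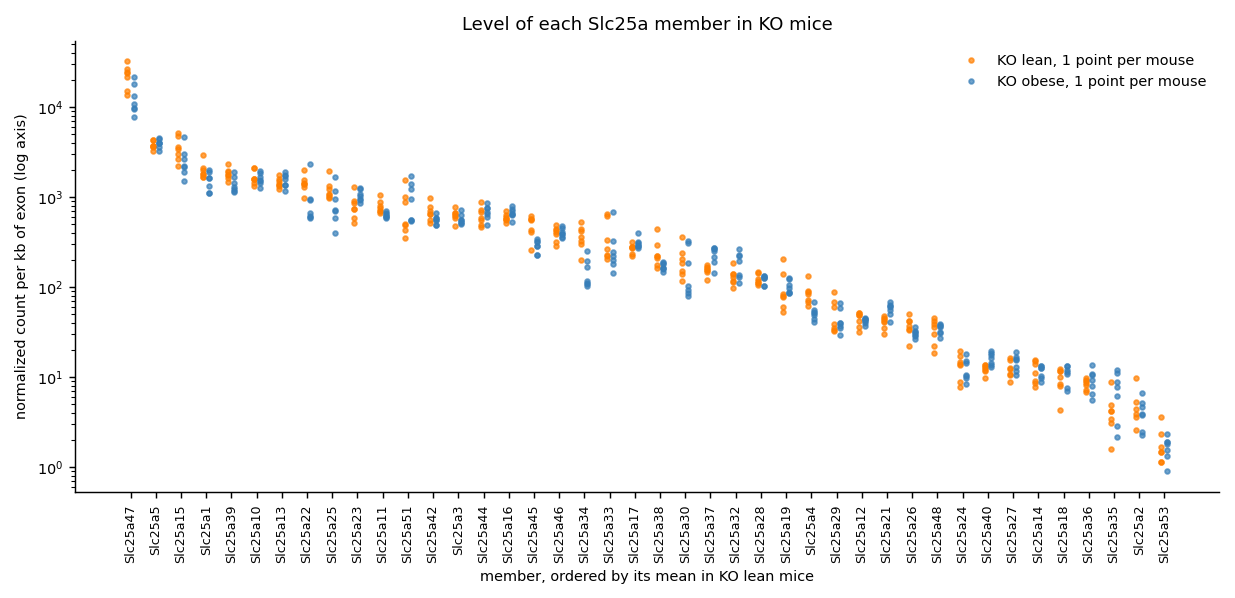
Normalized count per kb of exon (log axis) of the 42 members in lean and obese KO mice, 1 point per mouse, ordered by the KO lean mean; the one KO lean mouse with 0 reads of Slc25a2 has no point. Slc25a47 lies above every other member in both groups, and Slc25a53 is the lowest.

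Levels of different members were compared per kb of exon. Slc25a47, a liver-enriched carrier whose substrate is less settled, was the most abundant member in each lean and obese group of vehicle mice. In the table that holds both lean groups, its mean was 9927 ± 1647 normalized counts per kb (SD, n = 7) in WT and 20358 ± 5837 in KO mice. Its share of the summed level of all members was 30.1% in lean and 32.6% in obese WT mice, against 47.3% and 36.7% in lean and obese KO mice. In the table of WT mice on both diets, from which the levels below are taken, Slc25a5, the main ADP/ATP exchanger of most tissues, came next at 3101 ± 275 per kb in WT lean mice. Slc25a15, the ornithine carrier of the urea cycle, followed at 3055 ± 1007. These 2 neighbours did not differ beyond their spread. Slc25a22, a glutamate carrier, stood at 1638 ± 252 and Slc25a1, the citrate carrier that supplies acetyl groups for fatty acid synthesis, at 1622 ± 132 per kb, again within their spread. At the low end Slc25a53 stood at 1.52 ± 0.387, Slc25a35 at 3.37 ± 1.27 and Slc25a2 at 6.80 ± 2.55 per kb in WT lean mice, so values of these 3 members rest on few reads.

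Close relatives differed widely in level. Slc25a5 exceeded Slc25a4, the ADP/ATP exchanger typical of heart and muscle, which stood at 47.8 ± 10.8 per kb in WT lean mice. Slc25a13, the aspartate/glutamate carrier called citrin, stood at 1357 ± 169 and its relative Slc25a12 at 34.6 ± 5.53. The iron carriers Slc25a37 and Slc25a28 were closer, at 146 ± 25.1 and 118 ± 8.94. The pyrimidine nucleotide carrier Slc25a33 stood at 430 ± 191 and its relative Slc25a36 at 7.70 ± 1.87. Among the carriers that exchange ATP-Mg for phosphate, Slc25a25 stood at 1580 ± 1093, Slc25a23 at 1064 ± 293 and Slc25a24 at 10.9 ± 1.54. The SD of Slc25a25 was the widest of these relative to its mean. Processed copies of Slc25a4 and Slc25a5 elsewhere in the genome could share their reads, so both levels are uncertain to that extent.

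Diet in WT mice was the first comparison. Obese WT livers had more transcript of 3 members, Slc25a21, Slc25a40 and Slc25a10, and less of 2, Slc25a22 and Slc25a30. The other 37 of 42 members were not called, among them Slc25a35, a low member with the highest log2 fold change of the family here (0.99 ± 0.33, adjusted p = 0.119). The 3 higher members are 7.14% of those tested, where 3.65% of all 14012 genes were called higher. The 2 lower members are 4.76%, where 2.61% of all genes were called lower. The median log2 fold change was -0.04 over the members and 0.003 over all genes.

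Among the carriers of carboxylic acids, Slc25a21 (chr12:56712634-57197472, minus strand), which exchanges oxoadipate for oxoglutarate in lysine and tryptophan breakdown, ran from 124 to 221 normalized counts in WT lean mice, with a median of 165. It ran from 206 to 274 in WT obese mice, with a median of 244. The highest lean mouse, 8RL at 221, exceeded 2 obese mice and the other 5 obese mice exceeded every lean mouse (log2 fold change 0.56 ± 0.13, adjusted p = 0.0209). Slc25a10 (chr11:120491840-120499187, plus strand), which exchanges malate or succinate for phosphate, ran from 2814 to 4769 with a median of 3271 in lean mice. It ran from 4271 to 6247 with a median of 4450 in obese mice. All but 1 lean mouse lay below every obese mouse (log2 fold change 0.53 ± 0.13, adjusted p = 0.0329). Slc25a40 (chr5:8422850-8454797, plus strand), a carrier for glutathione import, ran from 55.8 to 110 with a median of 71.4 in lean mice. It ran from 105 to 141 with a median of 122 in obese mice, and 5 of 7 obese mice exceeded the highest lean mouse (log2 fold change 0.66 ± 0.15, adjusted p = 0.0268).

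Slc25a22 (chr7:141429744-141437892, minus strand) imports glutamate with a proton. It ran from 7661 to 11797 with a median of 10073 in WT lean mice. It ran from 2997 to 9940 with a median of 4232 in WT obese mice. In all, 6 obese mice lay below the lowest lean mouse and mouse 22L, at 9940, lay among the lean mice (log2 fold change -1.08 ± 0.22, adjusted p = 0.0135). Without 22L the log2 fold change was -1.26 (adjusted p = 0.00102). The uncoupling protein-like Slc25a30 (chr14:75760117-75787037, minus strand) ran from 614 to 2619 with a median of 1073 in lean mice. It ran from 193 to 804 with a median of 495 in obese mice, and 5 of 7 obese mice lay below every lean mouse (log2 fold change -1.50 ± 0.37, adjusted p = 0.0353).

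The plot of members called in WT mice shows both diet comparisons side by side. With library 22L left out, 8 members were called in WT mice in place of 5, while the share of all genes called went from 6.27% to 9.18%. Leaving out any other single mouse gave 5 to 7 calls (3.74% to 6.06% of all genes), and no single mouse ended a call of these 5 members. Under equal read totals 4 members and 3.64% of all genes were called, and Slc25a40 was not (adjusted p = 0.104). The number that opens a mouse's identifier, whose meaning the labels do not give, was also considered, since no number occurs in both WT groups. When that number entered as a random block, 3 members and 1.99% of all genes were called, and Slc25a10 (adjusted p = 0.121) and Slc25a30 (adjusted p = 0.121) were not.

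**Figure D2:**
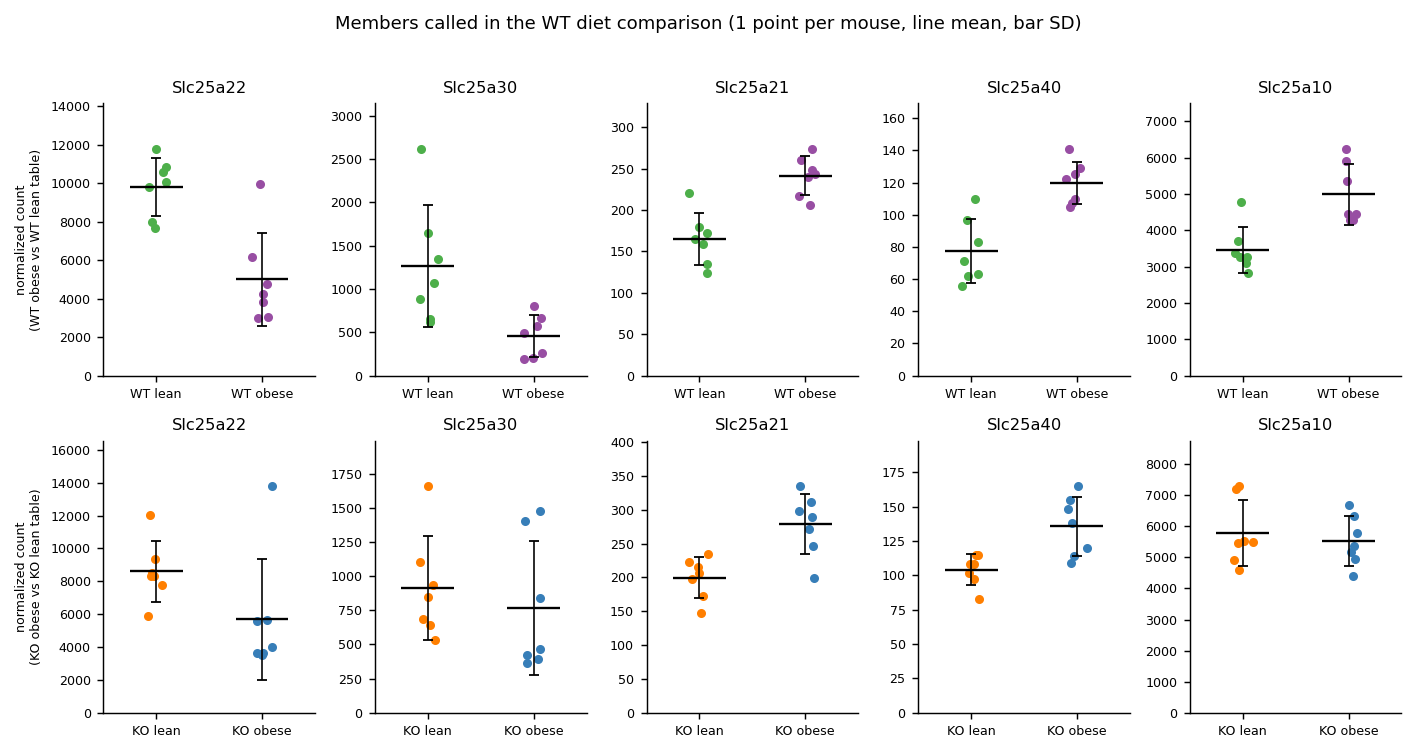
Normalized count of Slc25a22, Slc25a30, Slc25a21, Slc25a40 and Slc25a10 in WT mice (upper row) and KO mice (lower row) on the lean and high fat diets, 1 point per mouse, with the mean (line) and SD (bar) of 7 mice. Slc25a22 is lower in 6 of 7 obese mice of each genotype, with mice 22L and 23L among or above the lean mice.

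Diet in KO mice gave more calls, among the members as among all genes. Slc25a37, Slc25a21, Slc25a40 and Slc25a23 were higher in obese than in lean KO mice, which is 9.52% of 42 members, where 12.0% of all 14213 genes were called higher. Slc25a34, Slc25a45, Slc25a4, Slc25a47, Slc25a22, Slc25a39, Slc25a11, Slc25a38 and Slc25a1 were lower, which is 21.4% of members, where 12.1% of all genes were called lower. The other 29 members were not called. The median log2 fold change was -0.02 over the members and -0.002 over all genes. With each library scaled to equal read totals, which put the median over all genes (log2) at 0.142, 7 members were called higher and 5 lower, beside 18.0% and 4.42% of all genes. That scaling ended the calls of Slc25a39 (adjusted p = 0.210), Slc25a11 (0.414), Slc25a1 (0.215) and Slc25a38 (0.209). In bulk liver, fewer cells of a type and less RNA per cell cannot be told apart.

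By role, 3 of 6 carriers with less settled substrates were lower and none was higher, where 12.1% and 12.0% of all genes were called lower and higher. Each role holds few genes, so these counts give no result about a role. Slc25a34 (chr4:141618824-141623821, minus strand) ran from 535 to 1411 normalized counts with a median of 956 in KO lean mice. It ran from 274 to 672 with a median of 316 in KO obese mice. In all, 6 of 7 obese mice lay below the lowest lean mouse (log2 fold change -1.31 ± 0.23, adjusted p = 0.00383). Slc25a45 (chr19:5877808-5885878, plus strand) ran from 721 to 1715 with a median of 1548 in lean mice. It ran from 622 to 947 with a median of 793 in obese mice, and the overlap came from the single lean mouse 20R at 721 (log2 fold change -0.74 ± 0.17, adjusted p = 0.0140). Slc25a47 (chr12:108836046-108856815, plus strand) ran from 40844 to 96133 with a median of 70967 in lean mice. It ran from 22828 to 64738 with a median of 32002 in obese mice, 5 of which lay below every lean mouse (log2 fold change -0.83 ± 0.25, adjusted p = 0.0358).

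Of the 3 carriers that serve ATP supply, Slc25a4 (chr8:46206797-46211284, minus strand) was lower and the others were not called, where 12.1% of all genes were called lower. The values of Slc25a4 follow. It ran from 145 to 313 with a median of 198 in KO lean mice. It ran from 96.1 to 162 with a median of 122 in KO obese mice, 6 of which lay below every lean mouse (log2 fold change -0.68 ± 0.16, adjusted p = 0.0146). Slc25a5 had a log2 fold change of 0.06 ± 0.10 (adjusted p = 0.743).

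Among the carriers of carboxylic acids, the oxoglutarate/malate carrier Slc25a11 (log2 fold change -0.31 ± 0.11, adjusted p = 0.0601) and the citrate carrier Slc25a1 (-0.40 ± 0.16, adjusted p = 0.0983) were lower, and Slc25a21 was higher. Slc25a21 ran from 147 to 235 with a median of 207 in KO lean mice. It ran from 199 to 335 with a median of 289 in KO obese mice, 6 of which exceeded every lean mouse (log2 fold change 0.48 ± 0.13, adjusted p = 0.0273). Among the amino acid carriers 2 of 9 were lower, where 12.1% of all genes were called lower. Slc25a22 had a log2 fold change of -0.75 ± 0.26 (adjusted p = 0.0587), with 6 of 7 obese mice below the lowest lean mouse and mouse 23L at 13806 above the highest. Slc25a38, which imports glycine for heme synthesis, had a log2 fold change of -0.46 ± 0.17 (adjusted p = 0.0857).

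Of the 4 carriers of iron and glutathione 2 were higher and 1 was lower, where 12.0% and 12.1% of all genes were called higher and lower. Slc25a37 (chr14:69241848-69285112, minus strand), the iron carrier mitoferrin-1, ran from 731 to 1071 with a median of 929 in KO lean mice. It ran from 857 to 1633 with a median of 1497 in KO obese mice, and 6 of 7 obese mice exceeded every lean mouse (log2 fold change 0.54 ± 0.14, adjusted p = 0.0217). Its relative Slc25a28 was not called. The glutathione carriers Slc25a40 (log2 fold change 0.37 ± 0.13, adjusted p = 0.0561) and Slc25a39 (-0.38 ± 0.13, adjusted p = 0.0589) were called in opposite directions. The ATP-Mg/phosphate carrier Slc25a23 was higher by 0.43 ± 0.17 on the log2 scale (adjusted p = 0.0935), with no obese mouse above the highest lean mouse. None of the 10 cofactor, nucleotide and folate carriers was called with diet in KO mice, where 12.0% and 12.1% of all genes were called higher and lower.

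Several of these calls lay near the threshold and were lost when any of several single mice was left out. Without 10RL or 10R 6 members were called in KO mice (19.5% and 17.8% of all genes, against 24.1% with all mice), and without 9L or 31N 8 were called (15.7% and 21.0%). The calls of Slc25a34, Slc25a45, Slc25a4, Slc25a47, Slc25a37 and Slc25a21 were kept when any 1 mouse was left out. The call of Slc25a40 was lost without 10RL, 10R or 31R (adjusted p up to 0.112) and that of Slc25a11 without 14RL, 9L, 10RL or 10R (up to 0.113). That of Slc25a22 was lost without 10-2L, 10RL, 10R or 31N (up to 0.111), while without 23L its log2 fold change was -0.99 (adjusted p = 0.00270). That of Slc25a39 was lost without 20L, 9L, 10RL, 10R, 31N or 31R (up to 0.117). In edgeR and DESeq2 Slc25a22 (adjusted p = 0.146 and 0.108) and Slc25a23 (0.132 and 0.111) were not called, nor was Slc25a1 in edgeR (0.110). When single mice were left out, the call of Slc25a23 held only without 14-2L, 20R or 23L, that of Slc25a1 only without 20R, 23L or 31L, and that of Slc25a38 only without 14-2L, 20R, 9RL or 23L. When the identifier number entered as a random block, 4 members and 7.44% of all genes were called in KO mice, the members being Slc25a34 (adjusted p = 0.0282), Slc25a4 (0.0647), Slc25a45 (0.0747) and Slc25a37 (0.0971).

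**Figure D3:**
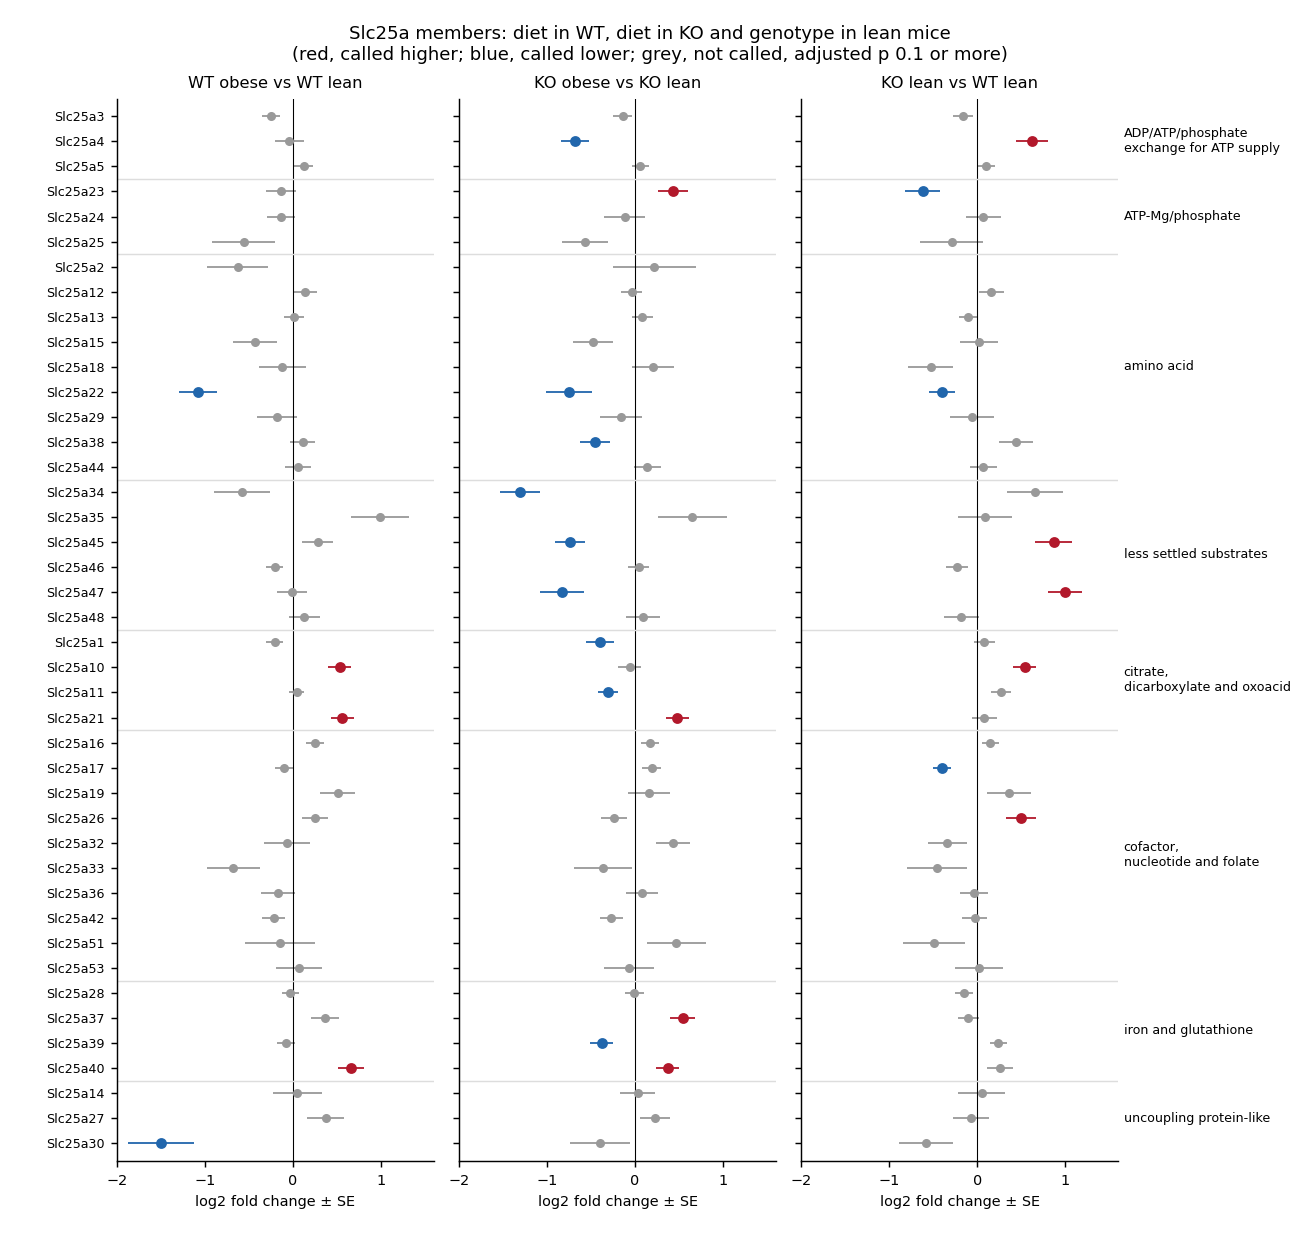
Log2 fold change with its SE of each member, grouped by role, for WT obese vs WT lean, KO obese vs KO lean and KO lean vs WT lean; red and blue mark members called higher and lower at an adjusted p under 0.1. Called members number 5, 13 and 8 in the 3 comparisons.

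Genotype in lean mice was compared next. Lean KO livers had more transcript of 5 members, Slc25a47, Slc25a45, Slc25a10, Slc25a4 and Slc25a26, and less of 3, Slc25a17, Slc25a23 and Slc25a22. The 5 are 12.2% of 41 members tested, where 8.00% of all 13031 genes were called higher, and the 3 are 7.32%, where 8.30% of all genes were called lower. The median log2 fold change was 0.02 over the members. With equal read totals, which put the median of all genes at -0.116, 3 members were called higher and 3 lower, beside 3.01% and 13.5% of all genes. That scaling ended the calls of Slc25a4 (log2 fold change 0.51, adjusted p = 0.130) and Slc25a26 (0.38, adjusted p = 0.202).

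Slc25a47 ran from 22409 to 38758 normalized counts with a median of 29044 in WT lean mice. It ran from 37210 to 87169 with a median of 64393 in KO lean mice. In all, 6 of 7 KO mice exceeded the highest WT mouse (log2 fold change 1.00 ± 0.19, adjusted p = 0.0302). Slc25a45 ran from 385 to 926 with a median of 634 in WT lean mice. It ran from 657 to 1555 with a median of 1406 in KO lean mice, and again 6 of 7 KO mice exceeded every WT mouse (log2 fold change 0.87 ± 0.21, adjusted p = 0.0358). Slc25a4 ran from 85.6 to 152 with a median of 119 in WT lean mice. It ran from 132 to 284 with a median of 179 in KO lean mice, and the groups overlapped by 2 KO mice (log2 fold change 0.62 ± 0.18, adjusted p = 0.0493). Slc25a10 ran from 2919 to 4960 with a median of 3404 in WT lean mice. It ran from 4178 to 6616 with a median of 4984 in KO lean mice, 4 of which exceeded every WT mouse (log2 fold change 0.54 ± 0.13, adjusted p = 0.0393). The S-adenosylmethionine carrier Slc25a26 had a log2 fold change of 0.50 ± 0.17 (adjusted p = 0.0697).

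Slc25a17 (chr15:81318911-81360812, minus strand), a peroxisomal carrier of coenzyme A and related cofactors, ran from 830 to 1070 with a median of 896 in WT lean mice. It ran from 573 to 827 with a median of 720 in KO lean mice. Every KO mouse lay below every WT mouse (log2 fold change -0.40 ± 0.10, adjusted p = 0.0391). No other member showed groups apart in this comparison, and the share of all genes with groups apart is not reported here. Slc25a23 had a log2 fold change of -0.62 ± 0.20 (adjusted p = 0.0660) and Slc25a22 of -0.40 ± 0.15 (adjusted p = 0.0932). Of the carriers of iron and glutathione and of the uncoupling protein-like carriers, none was called, where 8.00% and 8.30% of all genes were called higher and lower.

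Slc25a47, Slc25a45 and Slc25a4 were the 3 members called higher in KO lean than in WT lean mice and lower in KO obese than in KO lean mice, with the call of Slc25a4 in lean mice lost under equal read totals. With a random block for the identifier number, the lean calls of all 3 (adjusted p = 0.138, 0.139 and 0.146) and the diet call of Slc25a47 (0.139) were lost. Slc25a23 had the reverse calls, lower in KO lean than in WT lean mice (log2 fold change -0.62 ± 0.20, adjusted p = 0.0660) and higher in KO obese than in KO lean mice (0.43 ± 0.17, adjusted p = 0.0935). Both of its calls were lost with that block. Both comparisons use the same 7 KO lean mice, so opposite calls in them are not independent. The share of all genes with such opposite calls is not reported here. For Slc25a47, Slc25a45 and Slc25a4 the 200 bases before their start sites are shown, read from RefSeq promoters on GRCm38.p6, the build of mm10. The stretches are chr12:108850929-108851128 (plus strand) for Slc25a47, chr19:5877622-5877821 (plus strand) for Slc25a45 and chr8:46211063-46211262 (minus strand) for Slc25a4, each written along its gene. The stretches of Slc25a47 and Slc25a4, and the last bases of that of Slc25a45, lie inside the longer genes of the GENCODE annotation given above. Capitals mark a match to the GABP motif CCGGAAG on either strand.
Slc25a47: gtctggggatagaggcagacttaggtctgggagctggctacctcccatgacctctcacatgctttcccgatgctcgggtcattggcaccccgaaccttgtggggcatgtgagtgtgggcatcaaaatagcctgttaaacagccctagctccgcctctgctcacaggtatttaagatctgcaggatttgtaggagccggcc
Slc25a45: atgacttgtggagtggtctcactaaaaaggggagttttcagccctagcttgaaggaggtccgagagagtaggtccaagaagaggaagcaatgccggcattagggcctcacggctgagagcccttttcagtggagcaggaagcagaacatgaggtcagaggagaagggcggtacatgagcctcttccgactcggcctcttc
Slc25a4: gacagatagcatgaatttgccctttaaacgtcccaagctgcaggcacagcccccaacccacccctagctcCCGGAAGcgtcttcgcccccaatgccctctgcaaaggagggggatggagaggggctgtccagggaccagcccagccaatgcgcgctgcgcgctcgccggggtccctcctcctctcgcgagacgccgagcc
The match in Slc25a4 begins 130 bases before its start, and the other 2 stretches hold no match to any of the 6 motifs searched. These motifs, read on both strands over 250 bases before the start, were NRF1, GABP (CCGGAAG), ERR (TCAAGGTCA), CREB (TGACGTCA), E-box (CACGTG) and PPAR. The GABP motif was found in 6.91% of all 32851 promoters and in 9.52% of the 42 promoters of 32 members with an entry. The NRF1 motif was found in 3.74% of all and 2.38% of member promoters, the CREB motif in 1.55% and 4.76%, and the E-box in 6.02% and 16.7%. The ERR motif was found in 0.387% of all promoters and the PPAR motif in 0.0335%, and neither in a member promoter. Such matches describe letters only.

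**Figure D4:**
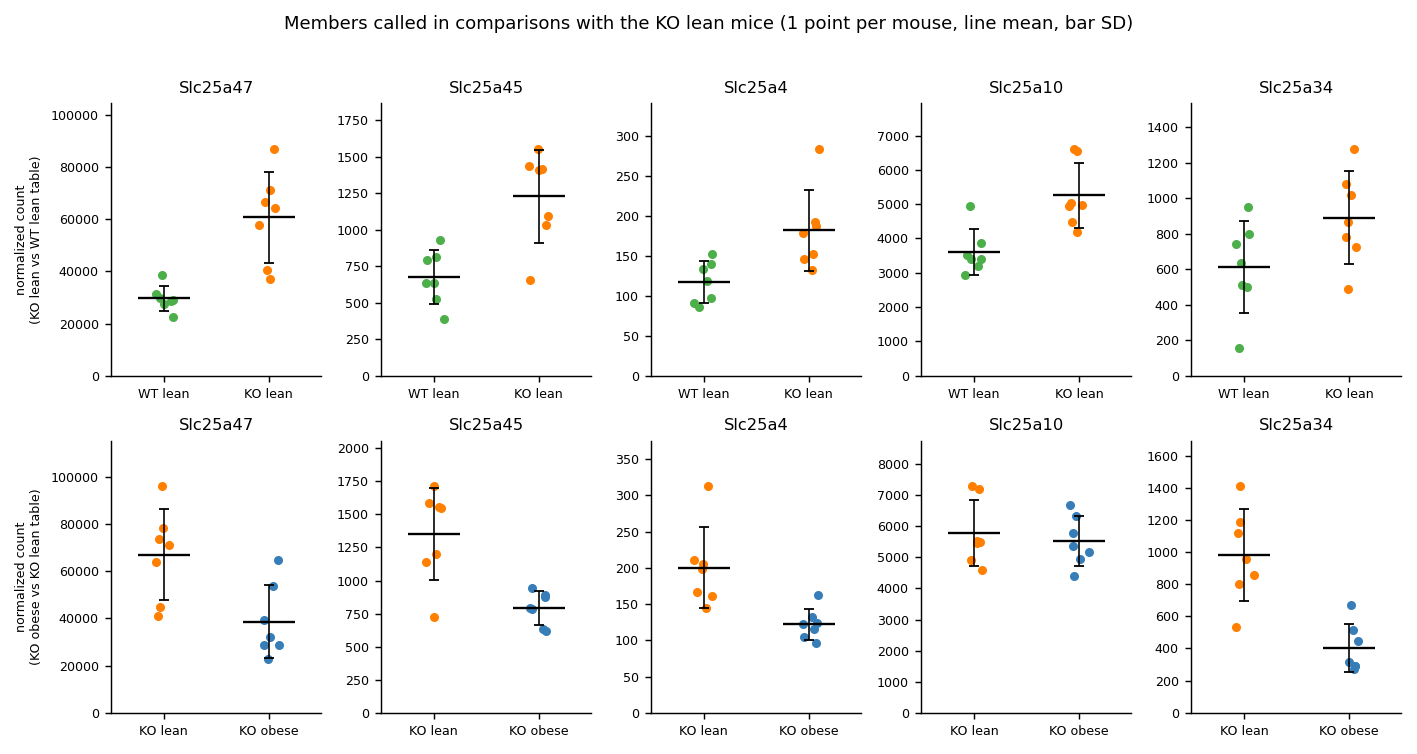
Normalized count of Slc25a47, Slc25a45, Slc25a4, Slc25a10 and Slc25a34 in lean WT and KO mice (upper row) and in lean and obese KO mice (lower row), 1 point per mouse, with the mean (line) and SD (bar) of 7 mice. The KO lean mice are the higher group in both rows for Slc25a47, Slc25a45 and Slc25a4, and each of these panels has overlapping groups.

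The calls in lean mice depended on which mice were included. Without 21L, 26R or 9L 4 members were called in place of 8 (4.76%, 4.39% and 4.62% of all genes, against 16.3% with all mice), and without 14RL or 20L 5 were called (7.65% and 6.76%). The calls of Slc25a47, Slc25a45, Slc25a10 and Slc25a17 were kept when any 1 mouse was left out. That of Slc25a4 was lost without 21L, 26R or 9L (adjusted p up to 0.111), that of Slc25a26 without 21L, 26R, 14RL, 20-2L, 20L or 9L (up to 0.146) and that of Slc25a23 without 21L, 26R, 14RL, 20L, 9L or 9RL (up to 0.140). The call of Slc25a22 held only without 8RL or 20R, and edgeR did not make it (adjusted p = 0.106). When the identifier number entered as a random block, no member was called, with an adjusted p of 0.138 for Slc25a47, 0.139 for Slc25a45 and 0.139 for Slc25a17. Only 0.0230% of all genes were called in that fit.

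Markers of other cells moved with the KO lean mice. All 9 listed Kupffer cell markers of 10 (Adgre1 was not listed) were called higher in KO lean than in WT lean mice (8.00% of all genes), and 8 of 9 were called lower in KO obese than in KO lean mice (12.1% of all genes). When the identifier number entered as a random block, 0.0153% of all genes were called higher in lean mice, so most of these 9 calls are not made in that fit. With diet in KO mice 3.92% of all genes were called lower in that fit, and the outcome for the 8 markers is not reported. The summed normalized count of the listed Kupffer cell markers ran from 4455 to 9302 in WT lean and from 10223 to 21485 in KO lean mice. With diet it ran from 11266 to 23695 in lean and from 6251 to 8710 in obese KO mice, with no overlap in either table. Cd5l, made by tissue macrophages, was the most abundant of them, and no listed Kupffer cell marker was at 0 in all mice of a group. Of the 7 T and B cell markers, the T cell genes Cd3e, Cd3g and Cd8a were not listed for KO lean vs WT lean. There 2 of the 4 B cell markers, Ms4a1 and Cd79b, were higher in KO lean mice (8.00% of all genes). Their mean summed counts over these 4 genes were 44.6 in WT lean and 74.3 in KO lean mice. With diet in KO mice 5 of 7 were lower (12.1% of all genes), with mean sums over all 7 genes of 108 in lean and 50.5 in obese mice. Log2 fold changes also moved with gene length across genes, with a Spearman's rho of -0.34 over 12291 genes for KO lean vs WT lean and 0.30 over 13316 genes for KO obese vs KO lean, where genes are not independent replicates. Over the members alone rho was -0.26 for KO lean vs WT lean (41 members) and 0.22 for KO obese vs KO lean (42 members). The part of other cells and of gene length in the members' results was not tested. With each library corrected for length and GC content, 9 members were called with diet in KO mice (22.2% of all genes), 7 of them among the 13. The calls lost were those of Slc25a40 (adjusted p = 0.121), Slc25a23 (0.108), Slc25a39 (0.276), Slc25a11 (0.195), Slc25a1 (0.449) and Slc25a38 (0.186). In lean mice 7 of the 8 calls were made under that correction (13.5% of all genes), and Slc25a22 was not called (adjusted p = 0.194). Slc25a47 had a log2 fold change of 0.92 (adjusted p = 0.0281) in lean mice and -0.70 (adjusted p = 0.0668) with diet in KO mice.

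Of the erythroid markers, the globin genes were not listed. Of 4 tested adipocyte markers only Cfd was called, higher with diet in WT mice (log2 fold change 4.34 ± 0.38) and in KO mice (3.01 ± 0.88). There 3.65% and 12.0% of all genes were called higher. Adipoq and Plin1 were listed for KO obese vs WT obese only. The summed count of the adipocyte markers, most of it from Cidec, ran from 399 to 1652 in WT lean and from 551 to 3295 in KO lean mice, and the groups overlapped. Of 6 sinusoidal endothelial markers 3 were lower in KO obese than in KO lean mice, where 12.1% of all genes were called lower. Of 6 stellate cell markers 1 was lower there. Another call was 1 lower stellate cell marker in KO lean against WT lean mice, where 8.30% of all genes were called lower. Of 4 cholangiocyte markers 1 was lower in KO lean mice, none of the acinar pancreas markers was called, and no skeletal muscle marker passed the filter on low counts.

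Genotype in obese mice called none of 42 members (limma), where 0.0141% of all 14162 genes were called. None had an unadjusted p under 0.05. EdgeR and DESeq2 also called 0 members, beside 0.0141% and 0.0212% of all genes. The log2 fold changes ran from -0.29 to 0.52. The 2 smallest p-values for higher members were those of Slc25a30 (log2 fold change 0.52 ± 0.40) and Slc25a36 (0.21 ± 0.21). For lower members they were those of Slc25a48 (-0.22 ± 0.17) and Slc25a28 (-0.12 ± 0.10), each with an adjusted p of 1.0 by limma over all genes. Slc25a30 ran from 213 to 888 in WT obese and from 353 to 1425 in KO obese mice, and the groups overlapped.

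RvE1 in obese WT mice called none of 41 members, where 0% of all 13085 genes were called. By limma 2 members had an unadjusted p under 0.05. EdgeR and DESeq2 called 0 members, beside 0.00764% and 0.191% of all genes. Slc25a46, an outer membrane protein that shapes the mitochondrial network, ran from 1967 to 2593 with a median of 2180 in WT obese mice. It ran from 1658 to 2010 with a median of 1895 in WT obese+RvE1 mice, 5 of which lay below every vehicle mouse (log2 fold change -0.25 ± 0.08, limma adjusted p = 0.772). Slc25a40 had a log2 fold change of -0.24 ± 0.10 (limma adjusted p = 0.786). The values nearest to a call among members with positive differences were 0.22 ± 0.11 for Slc25a10 (limma adjusted p = 0.861) and 0.13 ± 0.13 for Slc25a23 (0.962).

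RvE1 in obese KO mice called none of 42 members, where 0% of all 14207 genes were called. By limma 4 members had an unadjusted p under 0.05. EdgeR and DESeq2 called 0 members, beside 0% and 0.12% of all genes. Slc25a51, the carrier of NAD, ran from 3038 to 9458 with a median of 5255 in KO obese mice. It ran from 1893 to 7766 with a median of 2283 in KO obese+RvE1 mice. In all, 6 of 7 treated mice lay below every vehicle mouse and mouse 23-2L stood at 7766 (log2 fold change -0.92 ± 0.33, limma adjusted p = 0.557). Slc25a30 ran from 369 to 1492 in KO obese and from 200 to 650 in KO obese+RvE1 mice, with 5 treated mice below every vehicle mouse (log2 fold change -0.95 ± 0.35, limma adjusted p = 0.557). Slc25a10 (0.26 ± 0.12, limma adjusted p = 0.590) and Slc25a35 (0.68 ± 0.33, adjusted p = 0.604) had the smallest p-values among members with positive differences. Slc25a35 shares 31.3% of its exon bases with Rangrf on the other strand, and the strand setting of the counting is not given in the sources used here. With the 3 mice of number 10 left out, an alternative chosen after seeing the data, Slc25a51 was called lower and those mice, at 3038 to 3142, were the 3 lowest vehicle mice (log2 fold change -1.44, limma adjusted p = 0.0841). In that fit 2.32% of all genes were called. The number 23 opens the identifiers of mice in both groups, 23L with vehicle and 23-2L and 23RL with RvE1.

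**Figure D5:**
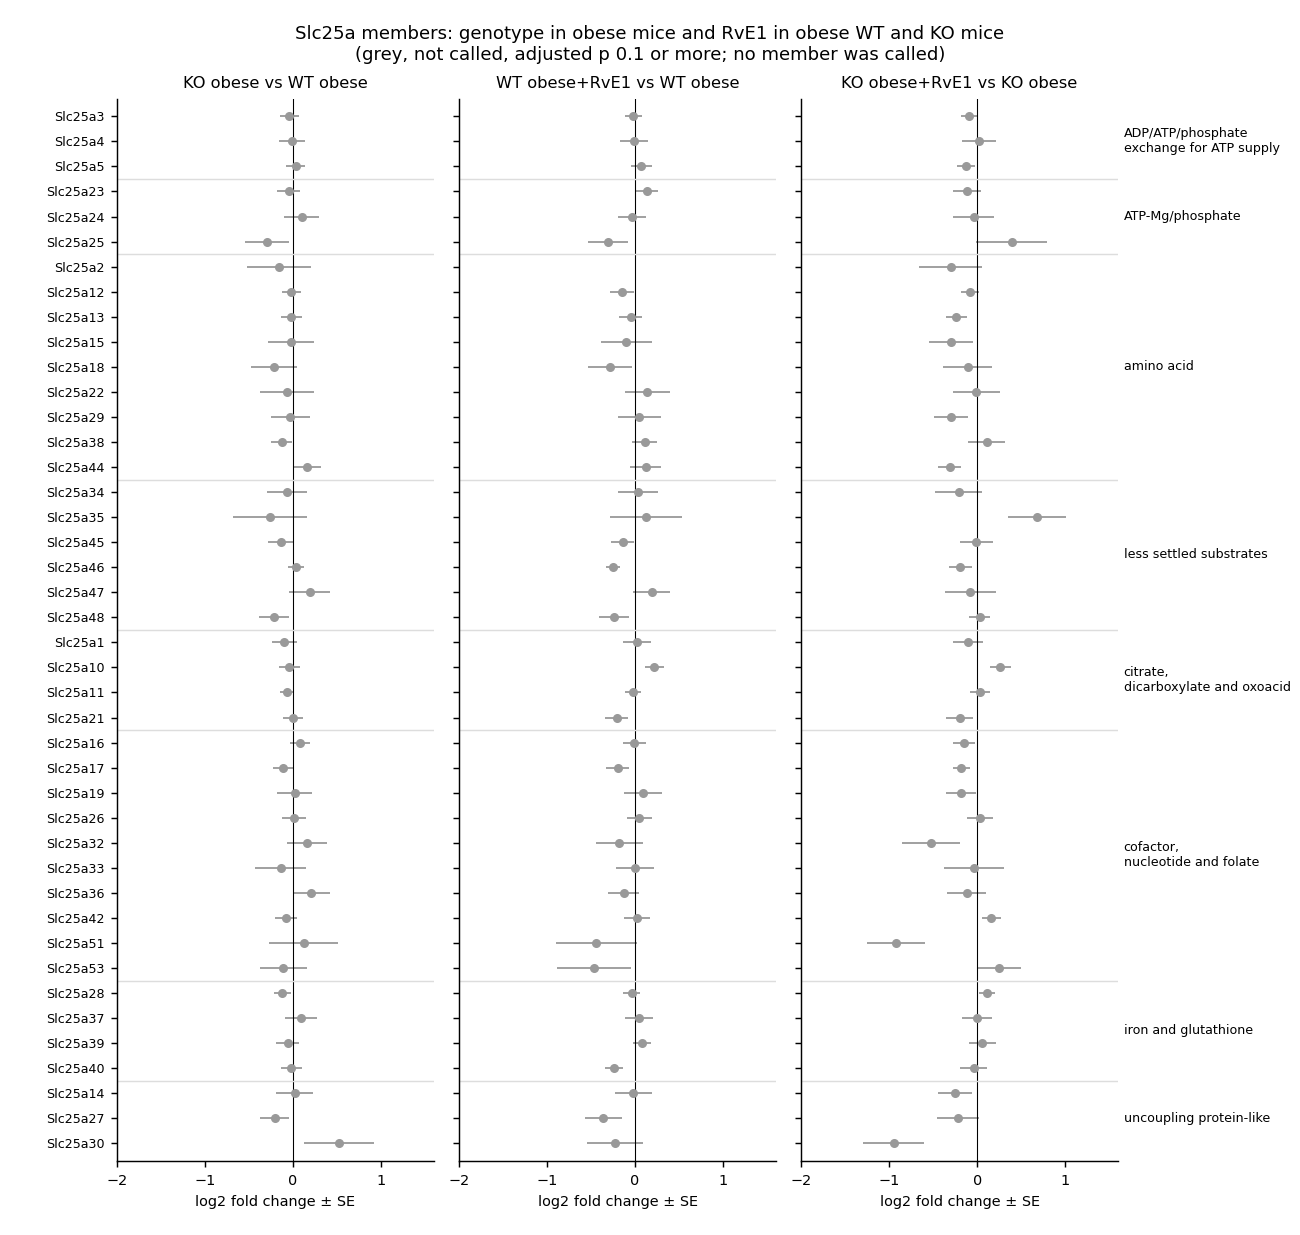
Log2 fold change with its SE of each member, grouped by role, for KO obese vs WT obese and for RvE1 in obese WT and obese KO mice; no member was called. The widest values lie in the KO obese+RvE1 panel, from -0.95 for Slc25a30 to 0.68 for Slc25a35.

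The difference between genotypes in the effect of diet was tested by itself. No member of 42 was called (limma), where 0.00718% of all 13924 genes were called, and 9 members had an unadjusted p under 0.05. DESeq2 called 6 members, and 6.65% of all genes, and edgeR called 0 members and 0.00718% of all genes. The difference (diet effect in KO minus that in WT) was -1.01 ± 0.26 for Slc25a45 (adjusted p = 0.141), -0.58 ± 0.18 for Slc25a10 (0.141), -0.64 ± 0.24 for Slc25a4 (0.168) and -0.81 ± 0.31 for Slc25a47 (0.170) by limma. Among positive differences, Slc25a23 had 0.57 ± 0.25 (adjusted p = 0.218) and Slc25a30 1.10 ± 0.54 (0.270). So the calls of Slc25a47, Slc25a45 and Slc25a4 with diet in KO mice and not in WT mice are not shown to differ between genotypes by this test, although DESeq2 called these 3 (adjusted p = 0.0907, 0.0194 and 0.0933), as did limma with library quality weights (0.0310, 0.00984 and 0.0382), where 18.4% of all genes were called. For the effect of RvE1, no member of 41 was called by limma, edgeR or DESeq2, where 0% of all 13059 genes were called by limma, and none had an unadjusted p under 0.05. The smallest p-values were those of Slc25a44, a carrier of branched-chain amino acids, with a difference of -0.43 ± 0.23 (limma adjusted p = 1.0), Slc25a30 with -0.72 ± 0.50, Slc25a25 with 0.70 ± 0.48 and Slc25a53 with 0.72 ± 0.50.

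Other genes of the same pathways were read from lists. In lean mice 8.00% of all genes were called higher and 8.30% lower in KO than in WT livers. When the identifier number entered as a random block, these shares were 0.0153% and 0.00767%. With diet in KO mice they were 12.0% and 12.1%, and 3.52% and 3.92% with that block. So calls given here and in the next paragraph for these comparisons rest on the fit without the block. Of 5 relatives of the family under other names 3 were tested (Ucp2, Mtch1 and Mtch2) and none was called in any comparison. Of 13 tested transporters of the inner membrane outside the family, 1 was higher with diet in WT mice and 4 in KO mice, where 3.65% and 12.0% of all genes were called higher. Sfxn1, a serine carrier, was higher in both (log2 fold change 0.47 ± 0.15 and 0.45 ± 0.09), and Letm1, a cation exchanger, in KO mice (0.50 ± 0.10). In lean mice Mpc1, a subunit of the pyruvate carrier, was higher in KO than in WT livers (0.79 ± 0.20, adjusted p = 0.0399) and Sfxn5 was lower (-0.34 ± 0.10). Of 16 genes for outer membrane channels and import of carriers, 6 were lower in KO obese than in KO lean mice, where 12.1% of all genes were called lower, led by the import chaperone gene Timm9 (-0.46 ± 0.11) and Tomm5 (-0.87 ± 0.25), a small subunit of the import pore. Tomm5, Timm8a1 and Timm10b were higher in KO lean than in WT lean mice (1.03 ± 0.27, 0.63 ± 0.19 and 0.36 ± 0.13), and Timm9 was the only one called with diet in WT mice (-0.37 ± 0.12).

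Among enzymes on either side of the carriers, Mdh2, the mitochondrial malate dehydrogenase, and Oat, which turns over ornithine, were lower in KO obese than in KO lean mice (log2 fold change -0.25 ± 0.10 and -0.35 ± 0.14), where 12.1% of all genes were called lower. Shmt2, which splits serine in mitochondria, was higher with diet in WT mice (0.46 ± 0.12), where 3.65% of all genes were called higher. Not all enzymes of this list are reported, so these 3 give no tally of it. Of 9 regulators of mitochondrial genes, none was called with diet in WT mice. With diet in KO mice 2 were higher and 2 lower, where 12.0% and 12.1% of all genes were called higher and lower. In KO lean against WT lean mice 2 were higher and 1 was lower, where 8.00% and 8.30% of all genes were called. Esrra, a nuclear receptor that drives genes of oxidative metabolism, was higher in KO lean than in WT lean mice (0.87 ± 0.20, adjusted p = 0.0357) and lower in KO obese than in KO lean mice (-0.97 ± 0.18, adjusted p = 0.00518). Tfam, which packages mitochondrial DNA, followed the same order (0.43 ± 0.15 and -0.47 ± 0.13). Pprc1, a coactivator, had the reverse order (-0.88 ± 0.20 and 0.83 ± 0.18). Gabpa was higher in KO obese than in KO lean mice (0.43 ± 0.10) and was not called in lean mice (-0.24 ± 0.09, adjusted p = 0.105). No listed gene of these 5 lists was called by limma in the obese genotype comparison or in either RvE1 comparison.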

How the data were processed

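Liver RNA of 42 mice was sequenced with 1 library per mouse. Per the labels, the authors built TruSeq stranded libraries (the labels name both polyA and total RNA), sequenced read pairs, used Bowtie2 on mm10 and featureCounts for gene counts (versions, annotation and handling of strand: not given in the sources used here). Bowtie2 does not split reads at exon junctions, so pairs that cross one can be lost or placed on processed copies. DESeq2 was run by the authors once per comparison. The deposited signal values are these normalized counts, each being reads over a size factor set per table. Columns with the authors' own log2 fold changes and p-values were left aside.

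Whole reads were recovered from the worth of 1 read in each library (100% of values whole within 0.1 reads; 0 genes differed between tables). No 2 libraries of a group agreed within sampling noise. Log2(normalized count + 1) was tested with limma (3.58.1, trend, in R 4.3.3), as a two-sided test of genes whose mean was at least 5 over 14 libraries, with Benjamini-Hochberg adjustment over all genes and calls at an adjusted p under 0.1, the study's level. Fold changes are on that scale and understate those of low genes. Interactions used 28 libraries, with each fold change formed within its table. Alternatives were pseudocounts of 0.5 and 4, no filter, TMM scaling, equal read totals, loess correction for length and GC content (span 0.3), library quality weights, the identifier number as a random block, edgeR (4.0.16) and DESeq2 (1.42.0) on recovered reads, an adjusted p under 0.05, a fold change above 1.5, and leaving out each mouse. Mice of 1 identifier number were left out together after seeing the data. Simulated data with known changes were also run through the procedure, and the outcome is not reported here. Simulated libraries were drawn independently, without a correlation within identifier numbers, so they cannot speak to calls lost with that block.

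In each comparison, up to 7 members called higher and 7 called lower with the smallest adjusted p were named, or where fewer than 2 were called the 2 with the smallest p in that direction; Slc25a38 and Slc25a1 were added to complete the count in KO mice. Members, roles, lists and tests were chosen with earlier results of these data known. Gene coordinates and lengths are GENCODE M21 on GRCm38 and promoters RefSeq on GRCm38.p6, matched by symbol (42 and 32 of 42 members). Results for some genes of the comparison lists are not reported here.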

Additional observations from a re-analysis of the deposited data

Results flagged for a closer look

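Of 72 groups of 7 mice checked for the named members, 3 held a mouse set apart from its neighbour by Dixon's 95% criterion (its gap over the group's range); chance alone flags about 1 group in 20. Slc25a22 stood at 13806 normalized counts in KO obese mouse 23L, where the group's median was 3976. Slc25a51 stood at 7766 in KO obese+RvE1 mouse 23-2L, where the median was 2283. Slc25a28 stood at 365 in WT obese mouse 27RL in the table of obese mice, where the median was 488.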

How the results depend on the processing

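Named members kept their direction under all alternatives run. The number of members called in WT obese vs WT lean, KO obese vs KO lean and KO lean vs WT lean (5, 13 and 8) became 8, 17 and 15 with library quality weights (11.5%, 40.4% and 33.0% of all genes), 3, 4 and 0 when the identifier number entered as a random block (1.99%, 7.44% and 0.0230%), and 3, 5 and 4 with a fold change above 1.5 (3.80%, 10.4% and 6.65%). At an adjusted p under 0.05, 6 were called in KO mice with diet (14.5% of all genes) and 5 in lean mice (5.51%). Leaving out 1 mouse gave 5 to 8, 6 to 15 and 4 to 10 (3.74% to 9.18%, 15.6% to 31.7% and 4.39% to 27.2% of all genes). For the other 3 comparisons it gave 0 to 0. Without all mice of 1 identifier number, chosen after seeing the data, the diet comparison in WT mice gave 1 without number 6 (2.83% of all genes), 3 without 21 (3.5%), 3 without 27 (2.24%) and 7 without 8 (8.99%). That in KO mice gave 6 without 9 (10.8%), 6 without 10 (13.9%), 2 without 31 (5.85%) and 16 without 20 (29.5%). Lean mice gave 0 without 9, 21 or 26 (0.115%, 0.246% and 0.0614%), 5 without 14 (10.4%), 11 without 8 (14.8%) and 12 without 20 (22.8%). RvE1 in KO mice gave 1 without number 10 (2.32% of all genes). The diet interaction called 8 members with quality weights (18.4% of all genes) and 6 with DESeq2 (6.65%). The cause of these shifts was not tested. Equal read totals put the median over all genes (log2) at 0.142 in KO obese vs KO lean and at -0.116 in KO lean vs WT lean. The split of higher and lower members became 7 and 5 (18.0% and 4.42% of all genes) and 3 and 3 (3.01% and 13.5%). With length and GC correction it was 2 and 7 (10.5% and 11.6% of all genes) and 5 and 2 (6.64% and 6.85%). No paired analysis was possible because each mouse is in 1 group and replicates carry no number of their own; of the identifier numbers, 23 alone occurs in 2 groups (KO obese and KO obese+RvE1). Each library is 1 mouse, so p-values cover the spread between mice. Depth limits Slc25a53, Slc25a35 and Slc25a2.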
